A study of Mus musculus with 12 samples.

Results

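The genes of cholesterol synthesis and sterol regulation were followed in hearts in which Cyb5r3 had been deleted in cardiomyocytes. The members were a list of 29 genes taken by name, of which 28 were matched to an identifier among the 53700 genes of the count table, and all 28 passed the filter on low counts. The exception was Hmgcs1, which makes HMG-CoA and whose counts were not analysed here because the name tables used did not pair it with an identifier. RNA came from the whole hearts of 6 ac-WT mice (CYB5R3 wt/wt, Myh6-CreERT2) and 6 ac-CYB5R3-KO mice (CYB5R3 fl/fl, Myh6-CreERT2; the knockout hearts below), so that both groups carried the same tamoxifen-inducible Cre transgene. All mice received tamoxifen at 33 mg/kg/d for 5 days, begun when they were 10 to 13 weeks old, and RNA was taken 5 days after the last dose. The Myh6 promoter directs Cre to cardiomyocytes, so that the other cell types in these whole hearts were not targeted, and the lines were of a mixed FVB/B6 origin backcrossed to C57BL/6J. The labels do not give the sex of these hearts, and the study describes its work after the survival data as done in males.

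Cholesterol is built from acetyl-CoA through mevalonate, squalene and lanosterol, and the later steps take place in the membrane of the endoplasmic reticulum. Several of them are oxidations that need electrons: CYB5R3 passes electrons from NADH to cytochrome b5, which supplies the sterol C4-methyl oxidase and the C5-desaturase, while cytochrome P450 oxidoreductase supplies squalene epoxidase and lanosterol demethylase from NADPH. When membrane sterol is low, SCAP carries SREBP proteins out of the endoplasmic reticulum for cleavage and the enzymes of the pathway are transcribed, whereas INSIG proteins hold the complex back. Oxysterols act through the liver X receptors (LXRs), which turn on cholesterol export. The comparison therefore asked whether the RNA of this pathway differed after its NADH-dependent reductase had been deleted.

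The promoters of the pathway are shown because its genes are known to share control by SREBPs, which bind sterol regulatory elements, and by NF-Y, which binds the letters CCAAT. The sequences were taken from RefSeq (GRCm38.p6), from 250 bases before to 50 bases after each start, and 24 of the 29 genes had an entry. The letters TCACNCCAC, on either strand, were found for 1 of these 24 genes (4.17%), Hmgcs1, against 1.44% of all 27025 genes in the table. CCAAT on either strand was found for 19 of the 24 (79.2%), against 41.1% of all genes, where a gene counts if any of its promoters matches. Counted by promoter, it was found in 20 of 33 (60.6%), against 37.4% of all promoters in the table. The stretches printed here run 5′ to 3′ in the direction of the gene. The Hmgcs1 stretch holds the sterol element in capitals, and the other 5 belong to enzymes that varied together from heart to heart, as described further on, with their CCAAT (or its complement ATTGG) nearest upstream of the start in capitals. A match describes the letters only, and no match says only that these letters were not in this window.
Hmgcs1 (chr13:119690189-119690247, plus strand): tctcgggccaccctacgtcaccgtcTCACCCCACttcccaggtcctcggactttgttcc
Idi1 (chr13:8885567-8885605, plus strand): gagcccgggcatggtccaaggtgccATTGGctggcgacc
Cyp51 (chr5:4104698-4104751, minus strand): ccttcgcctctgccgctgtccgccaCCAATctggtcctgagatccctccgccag
Msmo1 (chr8:64733604-64733658, minus strand): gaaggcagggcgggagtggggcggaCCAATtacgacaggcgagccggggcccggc
Nsdhl (chrX:72918476-72918520, plus strand): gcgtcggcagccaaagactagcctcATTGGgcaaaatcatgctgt
Sc5d (chr9:42264301-42264349, minus strand): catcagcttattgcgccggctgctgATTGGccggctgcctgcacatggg

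Depth was similar in all hearts, with 43393183 to 53754284 reads counted on genes. Factors from TMM scaling were 0.570 to 1.13 for ac-WT and 1.04 to 1.22 for ac-CYB5R3-KO libraries, and ac-WT hearts 2 (0.570) and 3 (0.723) stood apart, so log2 fold changes beyond 0.1 in size that moved by over 1.5 times without them are given both ways. Cardiomyocyte markers were abundant in every heart (summed 19500 to 44755 CPM in ac-WT and 14540 to 24397 CPM in the knockout hearts). At an unadjusted p under 0.05, 9.73% of all genes were lower and 4.91% were higher. By that measure 3 of 8 cardiomyocyte markers were lower (Myh6, Tnni3 and Myl2, each with its highest values in ac-WT hearts 2 and 3). Of 4 smooth muscle markers 2 were lower and 1 higher, 1 of 6 macrophage markers was lower, and none of 6 fibroblast or 5 endothelial markers passed. On the same rule 3 of 5 red blood cell markers, 1 of 5 lymphocyte markers tested and 3 of 3 cartilage markers tested (Acan, Col2a1 and Comp) were higher. The airway markers Scgb1a1 and Sftpc did not pass the low-count filter. Summed red blood cell markers ran from 222 to 4487 CPM in ac-WT and from 1323 to 12228 CPM in the knockout hearts. Cartilage and airway markers summed to 3.44 to 35.1 CPM in ac-WT and 37.4 to 96.6 CPM in the knockout hearts. Comp alone made up nearly all of this sum (means 16.2 and 73.5 CPM), and Acan and Col2a1 stayed below 1 CPM in every heart. The 7 adipocyte markers, none of which passed the low-count filter, summed to 0.0948 to 6.74 CPM in ac-WT and 0.118 to 2.42 CPM in the knockout hearts. The part that any of these cells had in the values below was not tested.

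Cyb5r3 itself fell in the ac-CYB5R3-KO hearts. It was at 81.9, 93.5, 111, 132, 150 and 185 CPM (reads of a gene relative to the TMM-scaled library) in ac-WT hearts and at 42.0, 48.0, 49.7, 55.7, 59.6 and 67.4 CPM in the knockout hearts. Every knockout heart was thus below every control, and the means were 126 ± 38.4 and 53.7 ± 9.07 CPM (SD, n = 6 each). The log2 fold change was −1.22 ± 0.19 (SE; adjusted p = 0.0450 by edgeR's quasi-likelihood test, with Benjamini-Hochberg correction for all 17847 tested genes). The adjusted p ran from 0.0305 to 0.136 when single hearts were left out, being above 0.05 without ac-WT heart 3 or 5 or any 1 of knockout hearts 1 to 5. It was 0.00417 without ac-WT hearts 2 and 3, 0.0561 with limma-voom and 0.315 when libraries were scaled by their totals alone. In RNA of whole hearts, fewer cells of a type and less RNA per cell cannot be told apart.

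No gene of cholesterol synthesis or sterol regulation changed past the threshold. None of the 28 members had an adjusted p under 0.05, where 0.101% of all genes did (18 of 17847), and none had an unadjusted p under 0.05, where 14.6% of all genes did. DESeq2 and limma-voom, which called 437 and 2 of all genes, likewise called 0 of the 28 and placed 0 under an unadjusted p of 0.05. When single hearts were left out, 3 members (Cyp51, Msmo1 and Insig1) had an unadjusted p under 0.05 without ac-WT heart 6, 1 without ac-WT heart 1 or knockout heart 5 or 6, and 0 without any other. For no member did the hearts of the groups separate without overlap, which 1.55% of all genes did. The log2 fold changes (ac-CYB5R3-KO over ac-WT) were above 0 for 18 members and below 0 for 10, where 51.2% of all genes were below 0. Their median was 0.061, beside −0.0074 for all genes tested, and ran from 0.0085 to 0.098 when single hearts were left out. Single members ran from −0.44 for Tm7sf2, a sterol C14-reductase, to 0.38 for Msmo1, the C4-methyl oxidase. These are values of a list chosen by name, and a p above the threshold does not show that the groups were alike. The 95% intervals in the plot of fold changes say how large a difference remained possible. Among the 28 members the narrowest was that of Scap (−0.087 to 0.25) and the widest that of Sqle (−0.31 to 0.99).

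**Figure D1:**
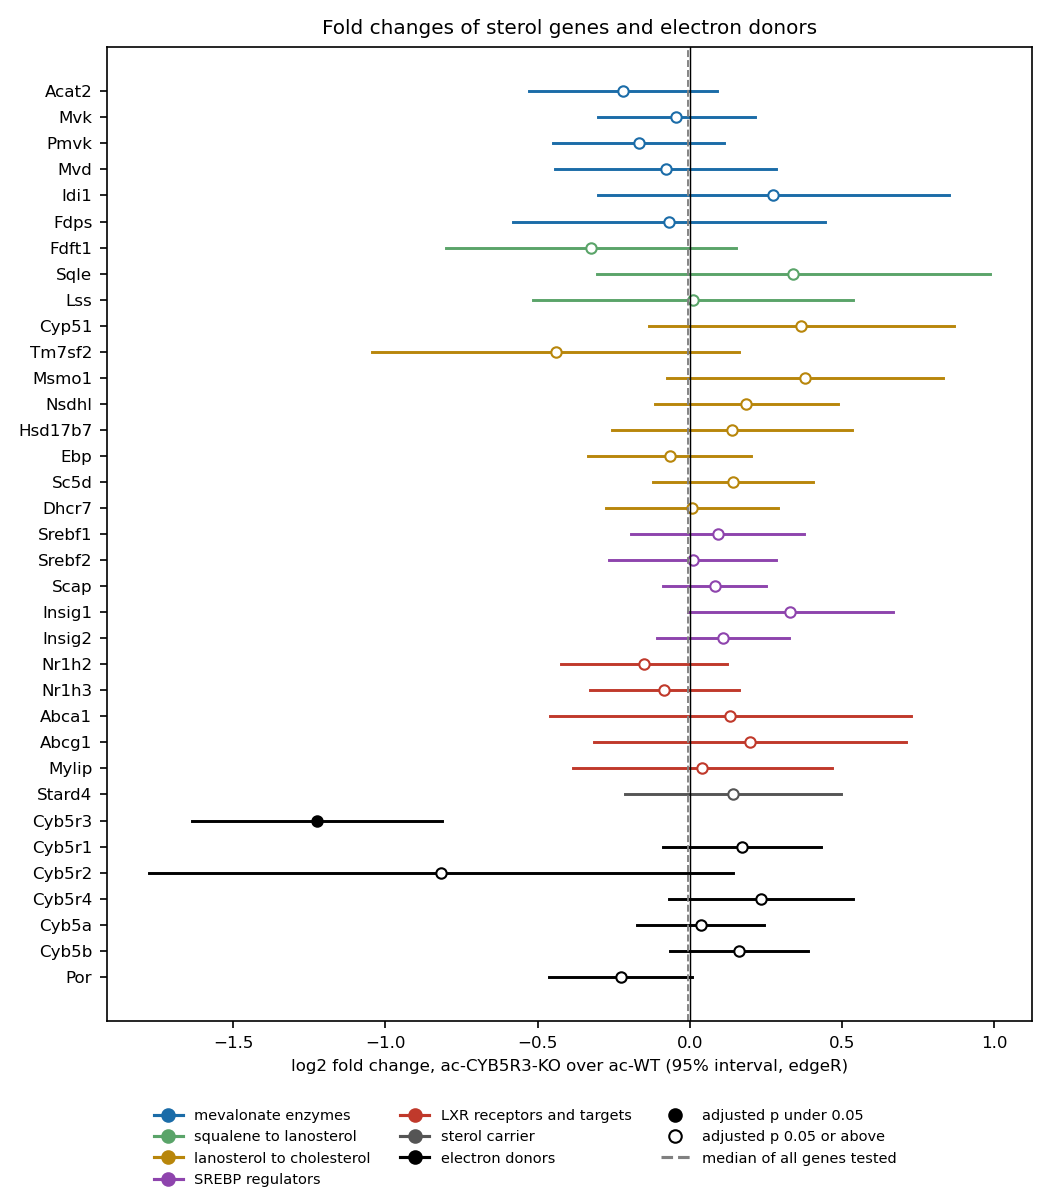
Log2 fold change of each member and of the electron donors (horizontal axis, ac-CYB5R3-KO over ac-WT, n = 6 each), with points for the edgeR estimate and bars for its 95% interval, coloured by role. The filled point is Cyb5r3 at −1.22, the 1 gene shown with an adjusted p under 0.05, and the intervals of all 28 members include 0.

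The plot of values by heart gives each member on a logarithmic axis. The ranges of the groups overlapped for every member but were not always alike. Some were wider in ac-WT, such as Fdft1 (8.44 to 24.1 CPM against 7.66 to 11.9 CPM in the knockout hearts). Others were wider in the knockout hearts, such as Msmo1 (7.10 to 16.4 CPM against 6.67 to 10.8 CPM in ac-WT). Counts were well above the low-count limit (the lowest count of any member in any heart was 47 reads, for Fdps).

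**Figure D2:**
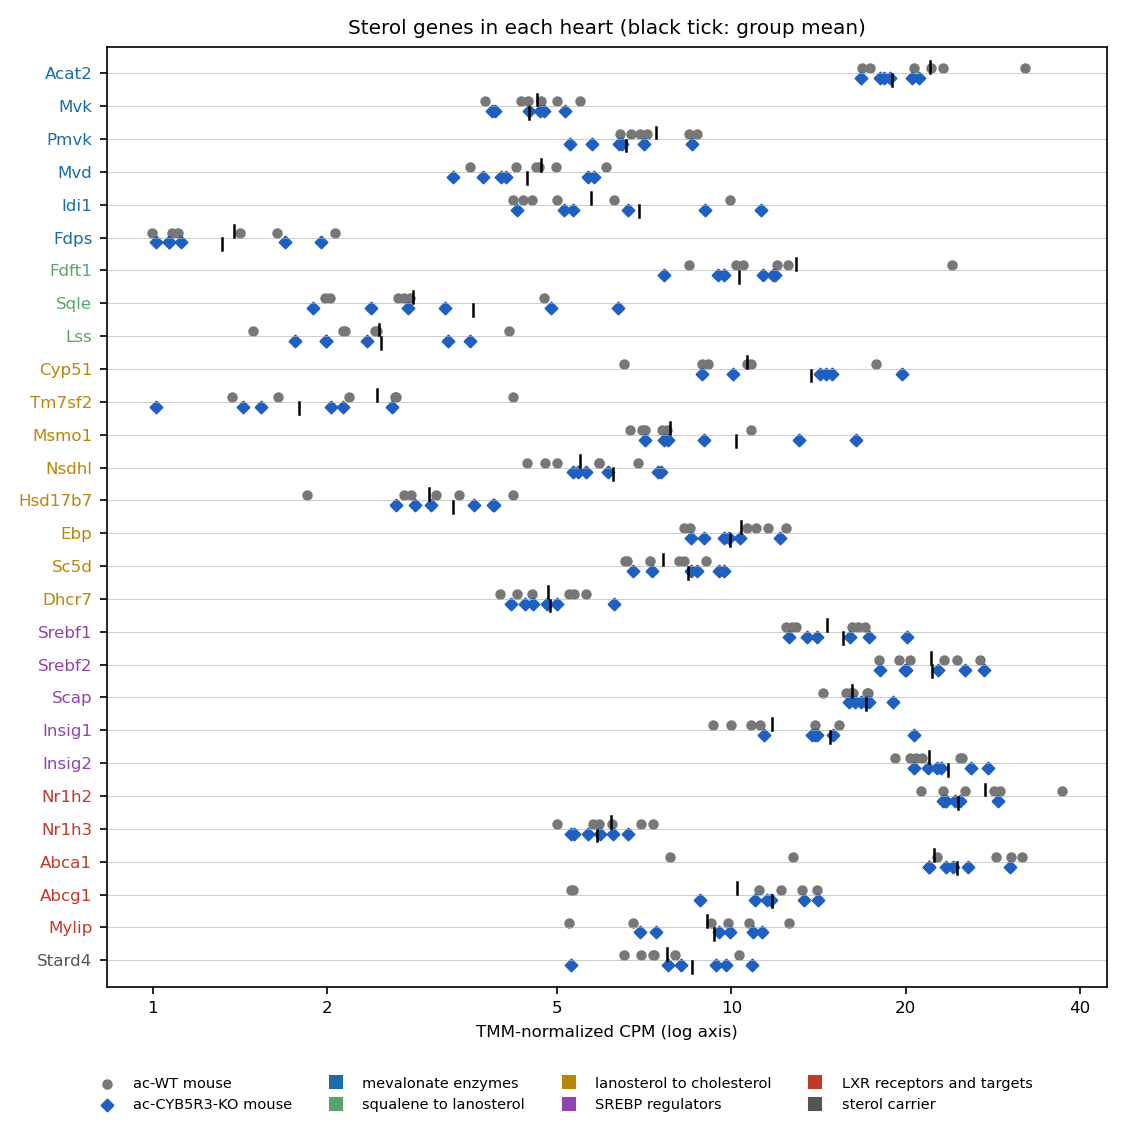
TMM-normalized CPM of the 28 members (log axis) in each of 6 ac-WT hearts (grey circles) and 6 ac-CYB5R3-KO hearts (blue diamonds), with a black tick at each group mean and gene names coloured by role. The points of the groups overlap for every member, from Fdps near 1 CPM to Nr1h2 and Abca1 above 20 CPM.

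The enzymes that lead from acetyl-CoA to farnesyl diphosphate had small fold changes whose direction depended on the setting. With all hearts and TMM scaling, 5 of the 6 measured had a log2 fold change below 0 and 1 above. The median was −0.074, and 0 of 6 passed. Without ac-WT hearts 2 and 3, the values of Mvk (0.067), Mvd (0.041) and Fdps (0.017) were above 0. With total counts in place of TMM each enzyme measured here was above 0, and the median over all genes was 0.26. Acat2, the cytosolic thiolase of the first step, ran from 16.8 to 32.2 CPM in ac-WT (median 21.4) and from 16.7 to 21.1 CPM in the knockout hearts (median 18.6), a log2 fold change of −0.22 ± 0.14 (SE). All 6 knockout hearts were below the ac-WT median, but the span of the controls owed its upper end to heart 2, and without ac-WT hearts 2 and 3 the log2 fold change was −0.0095. The phosphorylating enzymes and the decarboxylase had group means within an SD of each other. Mvk, mevalonate kinase, had means of 4.61 ± 0.59 and 4.47 ± 0.51 CPM. Pmvk, phosphomevalonate kinase, had means of 7.40 ± 0.95 and 6.58 ± 1.15 CPM, and Mvd, the diphosphomevalonate decarboxylase, of 4.68 ± 0.84 and 4.43 ± 1.05 CPM (SD, n = 6 each).

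Idi1, the isopentenyl diphosphate isomerase, was the mevalonate enzyme with a log2 fold change above 0 with all hearts and TMM scaling (0.27 ± 0.27, SE). Its ac-WT hearts were at 4.19, 4.36, 4.52, 4.996, 6.28 and 9.96 CPM and its ac-CYB5R3-KO hearts at 4.27, 5.14, 5.33, 6.63, 8.997 and 11.2 CPM. The groups overlapped almost fully, and ac-WT heart 6 and ac-CYB5R3-KO hearts 1 and 6 were the high ones. The log2 fold change was 0.084 without ac-CYB5R3-KO heart 1, 0.51 without ac-WT heart 6 and 0.16 without ac-WT hearts 2 and 3. Fdps, farnesyl diphosphate synthase, was the lowest member in CPM, with means of 1.38 ± 0.41 and 1.32 ± 0.40 CPM. For these genes the counting itself was uncertain: of all windows as long as a read (75 bases) in the coding transcripts of the GENCODE annotation, 82.7% for Idi1, 42.5% for Fdps and 28.4% for Acat2 also occurred elsewhere in the mouse genome (NCBIM37), against 0 for 23 of the 28 members. How reads with several matches were counted was not given in the sources used here.

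Of the enzymes that make lanosterol from farnesyl diphosphate, none of 3 passed. Fdft1, squalene synthase, ran from 8.44 to 24.1 CPM in ac-WT (median 11.2) and from 7.66 to 11.9 CPM in the knockout hearts (median 10.5). The top value was ac-WT heart 2, and the log2 fold change of −0.32 ± 0.22 (SE) became 0.018 without ac-WT hearts 2 and 3. In Fdft1, 14.2% of read-length windows occurred elsewhere in the genome. Sqle, the squalene epoxidase that takes electrons from NADPH, was at 1.99, 2.03, 2.66, 2.71, 2.78 and 4.74 CPM in ac-WT and at 1.89, 2.39, 2.76, 3.20, 4.89 and 6.36 CPM in the knockout hearts. The same hearts as for Idi1 were high, and the log2 fold change was 0.34 ± 0.30 (SE), with an exact permutation p of 0.383 (two-sided). It was 0.098 without ac-CYB5R3-KO heart 1 and 0.56 without ac-WT heart 6. Lss, lanosterol synthase, had means of 2.46 ± 0.89 and 2.48 ± 0.73 CPM, and its log2 fold change moved from 0.010 to 0.23 without ac-WT hearts 2 and 3, of which heart 3 held its highest value.

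The steps from lanosterol to cholesterol hold the oxidations that cytochrome b5 serves. Of the 8 enzymes, 6 had a log2 fold change above 0 and 2 below, the median was 0.14, and 0 of 8 passed. Msmo1, the C4-methyl oxidase, was at 6.67, 7.02, 7.11, 7.59, 7.74 and 10.8 CPM in ac-WT hearts. It was at 7.10, 7.65, 7.78, 8.98, 13.1 and 16.4 CPM in the knockout hearts. Ranges overlapped, 5 of 6 knockout hearts were above the ac-WT median, and the mean of the knockout group (10.2 ± 3.76 CPM against 7.82 ± 1.51 CPM) was above that of ac-WT, with its highest values in hearts 1 and 6. The log2 fold change of 0.38 ± 0.21 (SE) had an adjusted p of 0.425 by edgeR and an exact permutation p of 0.193 (two-sided, over all divisions of the 12 mice into groups of 6).

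Cyp51, the lanosterol demethylase, ran from 6.52 to 17.8 CPM in ac-WT (median 9.89) and from 8.88 to 19.7 CPM in the knockout hearts (median 14.4). Again 5 of 6 knockout hearts were above the ac-WT median, and the log2 fold change was 0.37 ± 0.23 (SE; adjusted p = 0.481 by edgeR). When ac-WT heart 6 was left out, the unadjusted edgeR p of Cyp51 was 0.0128 and that of Msmo1 0.0357, and neither passed the adjusted threshold. Their log2 fold changes were then 0.58 and 0.49, and they were 0.24 and 0.19 when ac-CYB5R3-KO heart 1 was left out instead. Sc5d, the desaturase that draws on cytochrome b5, had means of 7.63 ± 0.996 and 8.42 ± 1.18 CPM, a log2 fold change of 0.14 ± 0.12 (SE).

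Among the remaining enzymes, Nsdhl, the C4-decarboxylating dehydrogenase, had means of 5.48 ± 0.91 CPM in ac-WT and 6.25 ± 1.02 CPM in the knockout hearts (log2 fold change 0.19 ± 0.14, SE, and 0.091 without ac-WT hearts 2 and 3). Hsd17b7, the 3-keto reductase of the same complex, had means of 3.004 ± 0.778 and 3.31 ± 0.54 CPM. Ebp, the sterol isomerase, and Dhcr7, the last reductase, had log2 fold changes of −0.067 and 0.0070. Tm7sf2, the C14-reductase, ran from 1.37 to 4.19 CPM in ac-WT (median 2.40) and from 1.01 to 2.59 CPM in the knockout hearts (median 1.79). Its log2 fold change of −0.44 ± 0.28 (SE) was the lowest of the list. It was −0.12 without ac-WT hearts 2 and 3, of which heart 3 held the highest value.

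The 5 SREBP regulators all had log2 fold changes above 0, and 0 of 5 passed. Insig1 (ENSMUSG00000045294), whose protein retains the SCAP-SREBP complex and whose gene is itself a known SREBP target, had the smallest p of the 28 members. Its ac-WT hearts were at 9.29, 9.99, 10.8, 11.2, 14.0 and 15.4 CPM and its ac-CYB5R3-KO hearts at 11.4, 13.8, 13.9, 14.1, 15.001 and 20.7 CPM. All 6 knockout hearts were above the ac-WT median, while 5 of them lay at or below the top of the ac-WT range. The means were 11.8 ± 2.38 and 14.8 ± 3.13 CPM, and the log2 fold change was 0.33 ± 0.16 (SE, 95% interval −0.0062 to 0.67). When single hearts were left out it ran from 0.21 to 0.42. The adjusted p was 0.346 by edgeR, with an exact permutation p of 0.0758. Insig1 had an unadjusted p under 0.05 in 6 of the 21 other settings and an adjusted p under 0.05 in 0 of them. Of its read-length windows 22.0% occurred elsewhere in the genome.

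Insig2, the second retention protein, had means of 21.9 ± 2.45 and 23.6 ± 2.66 CPM, and its log2 fold change of 0.11 was 0.061 without ac-WT hearts 2 and 3. Scap, the escort, varied least among the members (coefficient of variation 6.45% in ac-WT and 6.26% in ac-CYB5R3-KO hearts), with means of 16.1 ± 1.04 and 17.1 ± 1.07 CPM. Srebf2, the SREBP gene that serves cholesterol synthesis, had means of 22.1 ± 3.38 and 22.2 ± 3.54 CPM, a log2 fold change of 0.0095 with an interval of −0.26 to 0.28. Srebf1, which serves mainly fatty acid synthesis, had means of 14.6 ± 2.15 and 15.6 ± 2.80 CPM.

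The LXR genes and their targets gave 3 log2 fold changes above 0 and 2 below, and 0 of 5 passed. Nr1h2 (LXRβ) had means of 27.4 ± 5.64 and 24.7 ± 2.16 CPM, and Nr1h3 (LXRα) of 6.20 ± 0.84 and 5.85 ± 0.52 CPM. The log2 fold change of Nr1h2 was −0.15, and 0.022 without ac-WT hearts 2 and 3. Abca1, the exporter of cholesterol to apolipoprotein acceptors, was at 7.83, 12.8, 22.7, 28.7, 30.4 and 31.8 CPM in ac-WT hearts and at 21.9, 22.0, 23.5, 24.1, 25.7 and 30.3 CPM in the knockout hearts. Abcg1, the exporter to HDL, was at 5.28, 5.33, 11.2, 12.2, 13.3 and 14.1 CPM in ac-WT and at 8.84, 11.001, 11.5, 11.7, 13.3 and 14.1 CPM in the knockout hearts. For both exporters the low values were ac-WT hearts 2 and 3, the hearts with the lowest TMM factors. The log2 fold changes of 0.13 ± 0.28 for Abca1 and 0.20 ± 0.24 for Abcg1 (SE) became −0.20 and −0.096 without these hearts.

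Macrophages are rich in both exporters. The 6 macrophage markers summed to 290 CPM in ac-WT heart 2 and 329 CPM in heart 3, the lowest of the 12 hearts, where the other controls had 442 to 1252 CPM and the knockout hearts had 435 to 806 CPM. Other cell types moved in the same hearts. The fibroblast markers summed to 929 and 922 CPM in ac-WT hearts 2 and 3, against 2224 to 3712 CPM in the other 10 hearts, and the cardiomyocyte markers to 44755 and 35771 CPM, against 14540 to 24397 CPM. The part of these cells in the exporter values was not tested. Mylip, an LXR target that degrades lipoprotein receptors, had means of 9.07 ± 2.68 and 9.34 ± 1.80 CPM. Stard4, a cytosolic sterol carrier and known SREBP target, had means of 7.74 ± 1.34 and 8.55 ± 1.95 CPM, a log2 fold change of 0.14 ± 0.16 (SE), which was 0.082 without ac-WT hearts 2 and 3.

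Compared per kilobase of exon, the members ran from 0.228 to 8.67 RPKM in ac-WT hearts. In ac-WT hearts Acat2 (8.67 ± 2.20 RPKM), Nr1h2 (8.14 ± 1.68 RPKM) and Insig2 (6.31 ± 0.71 RPKM) stood highest, and Acat2 and Nr1h2 did not differ beyond their spread. Pmvk (4.88 RPKM), Fdft1 (4.53 RPKM), Ebp (4.50 RPKM), Insig1 (4.45 RPKM) and Srebf2 (4.43 RPKM) followed, at levels closer to each other than their SDs. At the low end were Tm7sf2 (0.701 ± 0.286 RPKM), Hsd17b7 (0.589 ± 0.153 RPKM), Sqle (0.508 ± 0.181 RPKM) and Lss (0.228 ± 0.082 RPKM). Of these only Lss lay below the others by more than its own SD. The lengths joined all annotated exons of a gene, which for Lss came to 10787 bases. Its coding transcripts held only 4833 read-length windows. In CPM the ac-WT mean of Lss (2.46) was near those of Tm7sf2 (2.44) and Sqle (2.82). How far its low RPKM rests on that length was not tested. Cyb5r3 was at 29.2 RPKM in ac-WT and 12.5 RPKM in ac-CYB5R3-KO hearts on the same scale, above each member in both groups.

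Of the 6 other genes listed as electron donors, which include relatives of Cyb5r3, none passed. Por, the NADPH-dependent oxidoreductase, was at 21.1, 21.2, 21.3, 22.3, 24.1 and 29.2 CPM in ac-WT and at 16.1, 19.3, 19.8, 19.8, 20.3 and 23.6 CPM in the knockout hearts. In 5 of 6 knockout hearts it was below every control heart, and the log2 fold change was −0.23 ± 0.11 (SE; adjusted p = 0.354 by edgeR, exact permutation p = 0.0433 before any adjustment). The value was 0.064 with total counts in place of TMM and −0.13 without ac-WT hearts 2 and 3. Cyb5b, the cytochrome b5 of the outer mitochondrial membrane, had means of 31.3 ± 3.39 and 35.0 ± 4.22 CPM, and 4 of 6 knockout hearts were above every control. Cyb5a, the cytochrome b5 of the endoplasmic reticulum, had means of 44.5 ± 5.78 and 45.6 ± 1.83 CPM, a log2 fold change of 0.035 with an interval of −0.17 to 0.24.

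The 3 reductases related to Cyb5r3 gave log2 fold changes of 0.17 for Cyb5r1, −0.82 for Cyb5r2 and 0.23 for Cyb5r4. Cyb5r2 was low throughout (1.63 ± 1.22 CPM in ac-WT and 0.914 ± 0.322 CPM in the knockout hearts) and its highest values were those of ac-WT hearts 2 and 3. Without them its log2 fold change was −0.095, and that of Cyb5r4, whose lowest values were those of the same hearts, was 0.097. In Cyb5r4, 13.4% of read-length windows occurred elsewhere in the genome.

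A list of 38 further genes of the pathway covered precursor supply, side branches, ester storage, sterol transport, oxysterol enzymes, SREBP processing and the partners of LXRs. At an unadjusted p under 0.05, 4 of 38 were lower and 1 was higher, where 9.73% of all genes were lower and 4.91% were higher, and none had an adjusted p under 0.05. The smallest p was that of Dhdds, a subunit of the enzyme that draws farnesyl diphosphate into dolichol. It was at 18.3, 18.6, 19.8, 19.98, 20.1 and 21.8 CPM in ac-WT and at 21.8, 23.4, 24.3, 24.4, 28.3 and 31.6 CPM in the knockout hearts. In 5 of 6 knockout hearts it was above every control, and the groups met at 21.8 CPM. The log2 fold change was 0.38 ± 0.10 (SE; adjusted p = 0.173 by edgeR, exact permutation p = 0.00433). Its unadjusted p was under 0.05 in 21 of 21 other settings, and its adjusted p was under 0.05 in 1 of them (DESeq2, adjusted p = 0.0323).

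Nceh1, which hydrolyses cholesterol esters, had means of 65.9 ± 13.8 and 46.2 ± 12.9 CPM, with a log2 fold change of −0.51 ± 0.19 (SE) and an edgeR adjusted p of 0.244. Stard3, a sterol transporter of late endosomes, had a log2 fold change of −0.30, and Rxrg, an LXR partner, one of −0.69. The values of both genes were highest in ac-WT hearts 2 and 3, and without these hearts the log2 fold changes were −0.087 and −0.18.

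The other genes named by the size of their p had an unadjusted p of 0.05 or above. Rxrb, a second LXR partner, had a log2 fold change of −0.26, Mbtps2, the protease of the last SREBP cleavage, one of 0.23, and Gramd1b, which moves sterol from the plasma membrane, one of −0.47. Rxrb and Gramd1b were highest and Mbtps2 lowest in ac-WT hearts 2 and 3, and without these hearts the log2 fold changes of Rxrb, Gramd1b and Mbtps2 were −0.079, 0.0044 and 0.13. Without ac-WT hearts 2 and 3, 1 of the 38 genes rather than 5 had an unadjusted p under 0.05. The count was 9 without ac-WT heart 6, 2 without ac-WT heart 2 or knockout heart 4, and 3 without ac-WT heart 3 or knockout heart 1, 3 or 6. The values of Stard3, Rxrb and Por were above 0 with total counts in place of TMM, a scaling that shifted the median over all genes from −0.0074 to 0.26.

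Many of the sterol enzymes varied together from heart to heart within both groups. Ac-CYB5R3-KO heart 1 was the highest of the 12 hearts for 9 of 28 members, and it was the highest of its group for 15. Ac-WT heart 6 was the highest of its group for 14. Over the 17 enzymes measured, the median deviation from the gene's own mean on the log2(CPM + 1) scale was 0.26 in ac-CYB5R3-KO heart 1, 0.27 in ac-CYB5R3-KO heart 6 and 0.19 in ac-WT heart 6. In ac-CYB5R3-KO heart 5, the lowest, it was −0.19. High hearts therefore occurred in both groups, as the plot of selected members by heart shows.

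**Figure D3:**
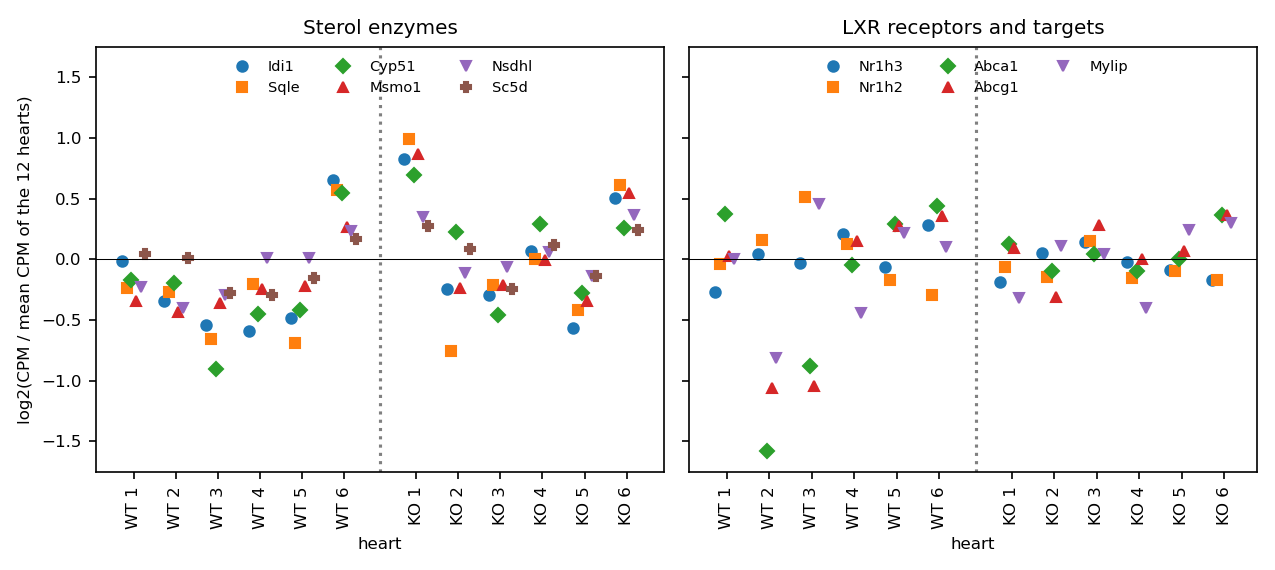
Log2 of CPM over the mean CPM of the 12 hearts (vertical axis) for 6 sterol enzymes (left) and for the LXR receptors and targets (right), with 1 position per heart and a dotted line between the groups. The enzymes are high together in ac-WT heart 6 and ac-CYB5R3-KO hearts 1 and 6, and Abca1 and Abcg1 are low in ac-WT hearts 2 and 3.

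This pattern was examined after the values had been seen, with correlations over the 12 hearts on log2(CPM + 1). Among the 136 pairs of enzymes 12 had a Pearson r of at least 0.8 (8.824%) and the median r was 0.431. Among all 378 pairs of members 16 did (4.233%, median r 0.217), and 2.051% of all pairs of genes tested did (median r −0.004). The share is a description, since the pairs share genes, hearts and scaling. By a two-sided permutation test with 100000 draws, 19 of the 378 pairs had a Benjamini-Hochberg adjusted p under 0.05, of which 18 were positive and 1 negative.

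Cyp51 and Sc5d had an r of 0.928 and a Spearman rho of 0.958 (permutation p = 6e-05 and 1e-05, adjusted 0.00907 and 0.00378), and of all genes tested Sc5d was the one most like Cyp51. The smallest p that 100000 draws can give is 1e-05. Msmo1 and Nsdhl, which act one after the other on the C4-methyl groups, had an r of 0.910 and a rho of 0.937 (permutation p = 1e-05 and 6e-05, adjusted 0.00378 and 0.00756). Without the 2 hearts farthest from the median of the first gene, r was 0.908 for Cyp51 and Sc5d and 0.896 for Msmo1 and Nsdhl. With each group centred on its own mean the r values were 0.917 and 0.891.

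Other pairs leaned more on a few hearts. Sqle and Msmo1 had an r of 0.920 and a rho of 0.713 (permutation p = 0.00026 and 0.0121, adjusted 0.0106 and 0.159), and r was 0.775 without the 2 farthest hearts. Abca1 and Abcg1 had an r of 0.921 and a rho of 0.783 (permutation p = 0.00028 and 0.00411, adjusted 0.0106 and 0.0971), and r was 0.627 without ac-WT hearts 2 and 3, the farthest from the median of Abca1. Mvd and Lss formed part of a second set of enzymes, with an r of 0.871 and a rho of 0.860 (permutation p = 0.00023 and 0.00064, adjusted 0.0106 and 0.0464), and r was 0.866 without the 2 hearts farthest from the median of Mvd but 0.750 without the 2 farthest from that of Lss. The negative pair was Tm7sf2 and Insig2, with an r of −0.894 and a rho of −0.846 (permutation p = 0.00012 and 0.00112, adjusted 0.00907 and 0.0529), and an r of −0.817 without the 2 farthest hearts.

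**Figure D4:**
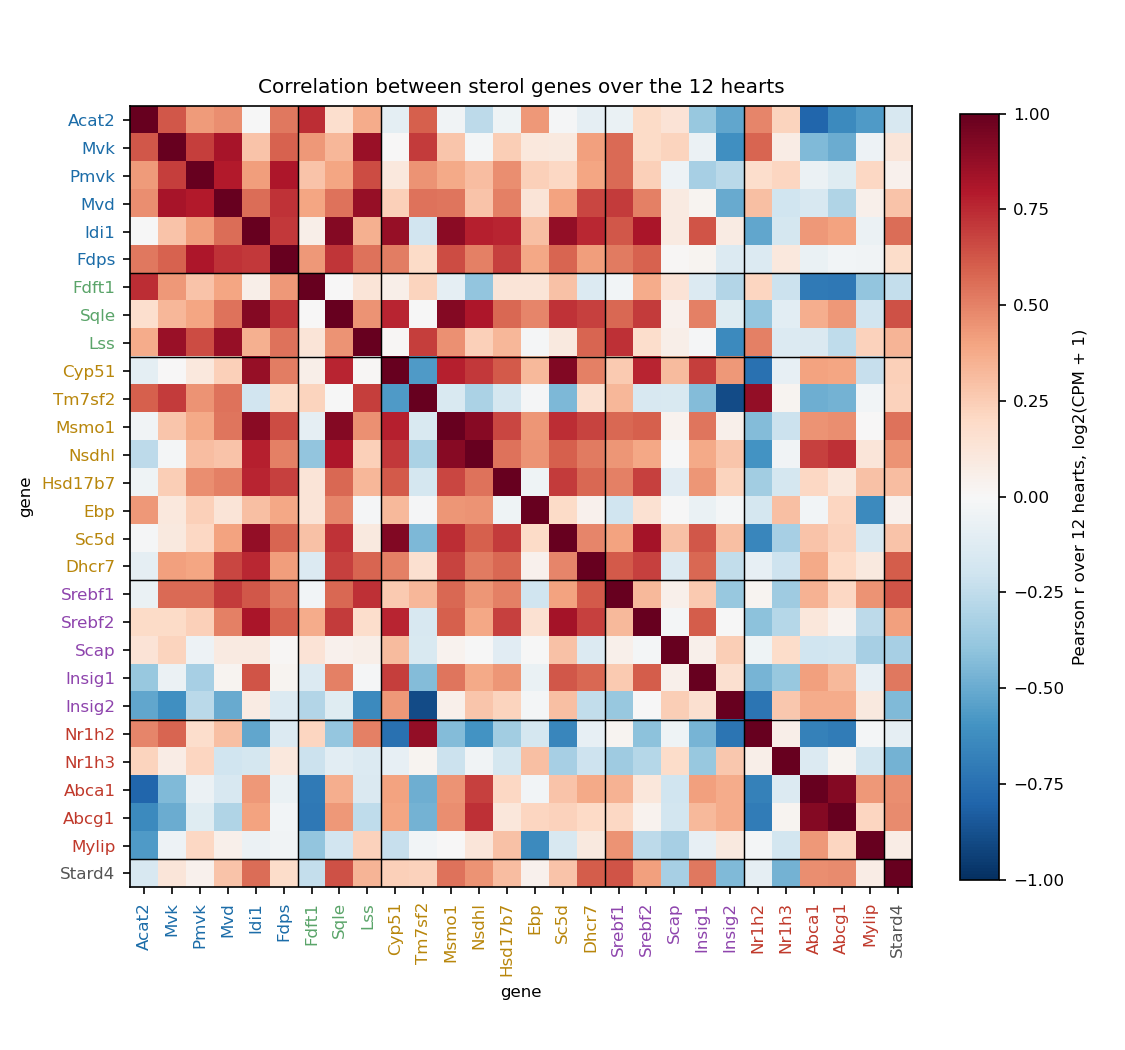
Pearson r between the 28 members over the 12 hearts (colour, from −1 in blue to 1 in red, on log2(CPM + 1)), in the order of the pathway with black lines between roles. Red blocks among the enzymes hold Cyp51 with Sc5d (0.928) and Msmo1 with Nsdhl (0.910), and the deepest blue off the diagonal is Tm7sf2 with Insig2 (−0.894).

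Srebf2 varied with some of these enzymes. Its r was 0.834 with Sc5d and 0.820 with Idi1 (permutation p = 0.00153 and 0.00106, adjusted 0.0340 and 0.0280), with a rho of 0.790 and 0.776 (permutation p = 0.00348 and 0.00411, adjusted 0.0940 and 0.0971). Without the 2 hearts farthest from the median of the first gene of each pair, r was 0.814 for Sc5d and 0.643 for Idi1, and with the 2 hearts farthest from the median of Srebf2 left out, it was 0.756 for Sc5d and 0.643 for Idi1. A correlation over 12 hearts describes these hearts and says nothing of which gene acts on which.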

How the data were processed

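RNA of 12 whole mouse hearts was sequenced from stranded total-RNA libraries, with 75 bp reads. The values deposited by the authors were raw counts of reads, whole numbers for 53700 genes per heart with no normalization, and 0 columns were left unused. The methods of the study name STAR and mm9, while the submitters' processing notes list STAR, featureCounts and GRCm39, so the build is uncertain and no gene position from the counts is given. The strand setting and annotation were not given in the sources used here, so overlapping and antisense genes may share counts. Depth was 43393183 to 53754284 counts per heart. At this depth the spread between mice (biological coefficient of variation 26.48%) limits the precision, and each mouse was 1 sample.

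Counts were filtered with filterByExpr (minimum count 10), scaled by TMM and tested two-sided with edgeR's quasi-likelihood test (edgeR version 4.0.16, R 4.3.3) without covariates, with Benjamini-Hochberg adjustment over 17847 genes. Intervals (95%) came from the same fit. Single genes were also tested by exact permutation on log2(CPM + 1), where the smallest possible p is 0.00216. RPKM used exon lengths of GENCODE M1, and symbols came from supplied name tables (31027 of 53700 identifiers matched). Older symbols were used for Msmo1 and Cyb5a, and 2 of 7 red blood cell markers were unmatched. The members, gene lists and tests were chosen with earlier results of these data known. Named genes were all members, the electron donors and, of 38 further pathway genes, the 8 with the smallest p, of which 1 is not reported here. Correlations and read-window checks were added after the values had been seen. Alternatives were DESeq2 (1.42.0), limma-voom (limma 3.58.1), other scalings and filters, a replicate block, 1 surrogate variable (sva 3.50.0) and leaving out hearts. The tests were checked on simulated data.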

Additional observations from a re-analysis of the deposited data

Results flagged for a closer look

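In 56 groups of 6 hearts, 1 for each member and genotype, single hearts lay far from the other 5 by Dixon's test (gap over range above 0.625). Chance flags about 1 group in 20, and 6 were found. Ac-WT heart 6 was high for Idi1 (9.96 CPM, the others 4.19 to 6.28 CPM), for Sqle (4.74 CPM, the others 1.99 to 2.78 CPM) and for Msmo1 (10.8 CPM, the others 6.67 to 7.74 CPM). Ac-WT heart 2 was high for Fdft1, at 24.1 CPM with the others from 8.44 to 12.5 CPM. Ac-WT heart 3 was high for Lss, at 4.13 CPM with the others from 1.49 to 2.45 CPM. Ac-CYB5R3-KO heart 3 was high for Nr1h2, at 28.9 CPM with the others from 23.2 to 24.9 CPM.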

How the results depend on the processing

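None of the 28 members had an adjusted p under 0.05 in any of the 21 alternatives, and their groups overlapped in each setting tried. The count of all genes called was 18, and 437 with DESeq2, 2 with limma-voom, 8 with RLE factors, 8 with total counts, 35 without a filter, 3 with the surrogate variable, 7 without ac-WT hearts 2 and 3, and 2 to 38 when single hearts were left out (38 without ac-WT heart 4). At an unadjusted p under 0.05, 1737 genes were lower and 877 higher (66.4% lower). With total counts these were 367 and 1686 (17.9% lower), with the surrogate variable 927 and 474, without ac-WT hearts 2 and 3 831 lower, without a filter 1370 higher, and when single hearts were left out 1116 to 2092 lower. Members at an unadjusted p under 0.05, all of them higher, numbered 2 with total counts, 1 without a filter and 0 to 3 when single hearts were left out. Electron donors at that threshold numbered 2 with total counts and 1 to 3 without single hearts, and those called 0 with limma-voom, 0 with total counts and 0 to 1 without single hearts. Of the 38 further genes, 3 rather than 5 passed with limma-voom, with total counts and without a filter, 1 without ac-WT hearts 2 and 3, and 2 to 9 without single hearts. The members' median log2 fold change was 0.30 with total counts, 0.046 above that of all genes, which moved to 0.26.

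The replicate numbers of the labels were not taken to pair the hearts: deviations of same-numbered hearts correlated at −0.072 to 0.35 (mean 0.14, and −0.028 for other pairs), not above 0.1 for every pair, and 3 of 6 control hearts correlated best with their own number. With the number as a replicate block, 2 genes were called, Cyb5r3 was not (adjusted p = 0.10), and 2 members (Cyp51 and Insig1) and 2 electron donors (Cyb5r3 and Por) had an unadjusted p under 0.05.

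Some log2 fold changes turned sign, among them those of Cyb5r2 (−0.82), Gramd1b (−0.47) and Fdft1 (−0.32), and the cause was not tested. With total counts they were Acat2 0.11, Mvk 0.25, Pmvk 0.10, Mvd 0.20, Fdps 0.20, Fdft1 0.042, Ebp 0.19, Nr1h2 0.16, Nr1h3 0.18, Por 0.064, Stard3 0.0204 and Rxrb 0.0597. With the surrogate variable they were Mvk 0.063, Mvd 0.022, Fdft1 0.053, Dhcr7 −0.042, Srebf2 −0.023, Nr1h2 0.063, Abca1 −0.31, Abcg1 −0.19, Cyb5r2 0.31, Cyb5a −0.067 and Gramd1b 0.12. Without ac-WT hearts 2 and 3 they were Mvk 0.067, Mvd 0.041, Fdps 0.017, Fdft1 0.018, Dhcr7 −0.0104, Nr1h2 0.022, Abca1 −0.20, Abcg1 −0.096, Cyb5a −0.028 and Gramd1b 0.0044. With limma-voom the value was Dhcr7 −0.0094. When single hearts were left out the ranges were Lss −0.12 to 0.23, Dhcr7 −0.078 to 0.056, Abca1 −0.032 to 0.26, Mylip −0.061 to 0.17, Mvk −0.098 to 0.018, Mvd −0.17 to 0.017, Srebf2 −0.057 to 0.075, Cyb5a −0.022 to 0.082 and Fdps −0.21 to 0.088. Cyb5r3 kept its direction in all 21 alternatives and an adjusted p under 0.05 in 11 of them.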
